A study of Mus musculus with 18 samples.

Results

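Of the 19153 genes listed for each library, 8 code for parts of the dystrophin-glycoprotein complex and are described here: Dmd, Utrn, Dag1, Sgca, Sgcb, Sgcd, Sspn and Dtna. They were chosen by name, from the proteins that make up the complex, and each was found through its Ensembl identifier. The libraries are RNA-seq libraries of immortalized mouse myoblasts, the precursor cells of muscle fibers, and all of the cells lack p53. Wildtype (WT) cells had received an empty Cas9 vector, and knockout (KO) cells the same vector with a guide RNA specific for LAP2α, a nucleoplasmic protein that binds lamin A/C. Each genotype was a bulk-sorted pool of cells and not a clone. Both were sampled while proliferating below 70% confluence in 20% serum (Prol), on reaching confluence in 20% serum (D0), and on day 2, after 48 hours in 5% serum (D2), with 3 replicate libraries in each of the 6 groups. The study asked how loss of LAP2α affects muscle gene expression during differentiation.

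The dystrophin-glycoprotein complex joins the actin cytoskeleton of a muscle fiber to the extracellular matrix and protects its membrane during contraction. Dystrophin, or its relative utrophin, binds actin on the inside, and dystroglycan, cut from a single precursor into an extracellular and a transmembrane part, binds laminin on the outside. The sarcoglycans and sarcospan are membrane proteins that hold this axis together, and dystrobrevin and the syntrophins bind dystrophin from within the cell. Loss of dystrophin causes Duchenne muscular dystrophy, loss of a sarcoglycan causes limb-girdle muscular dystrophy, and faulty glycosylation of dystroglycan causes the dystroglycanopathies.

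The libraries held 26437823 to 41619016 expected counts, that is, reads assigned to genes by a statistical model, with a median of 32939620, so that 3 counts, the limit taken for detection, correspond to 0.0651 to 0.119 CPM, that is, counts scaled to a common library total. Intervals and limits from counts cover counting error only. The label of the cells was checked with 7 myoblast and muscle markers, all of them found, whose summed level was 32.5 to 40.3 CPM in Prol, 1792 to 3492 CPM in WT D2 and 1112 to 1307 CPM in KO D2. Most of the Prol sum was Myf5, whose mean was lower at D2: 24.5 and 17.6 CPM in WT, 23.4 and 20.0 CPM in KO. Most of the D2 sum was Myh3, with means of 1373.5 CPM in WT and 691 CPM in KO. In WT Prol, Myod1 averaged 2.59 CPM and Des 3.44 CPM, below the fibroblast marker Pdgfra at 25.1 CPM. The satellite cell marker Pax7 was not analysed here. Of 5 fibroblast markers, all were found and all rose at D2 in both genotypes, and their summed level was 17.5 to 47.0 CPM in Prol, 125 to 205 CPM in WT D2 and 132 to 308 CPM in KO D2, nearly all of it Pdgfra and Dcn. Of 9 markers of endothelial, immune, Schwann, smooth muscle and fat cells, 4 were found, summing to 2.75 to 6.97 CPM. Tmpo, the gene of LAP2α, lay between 275 and 315 CPM for WT and between 228 and 260 CPM for KO during proliferation, between 239 and 302 and between 191 and 259 CPM at D0, and between 106 and 157 and between 94.5 and 157 CPM at D2, but these values add up all Tmpo isoforms and do not measure LAP2α alone.

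In the GRCm38 annotation, Dmd lies at chrX:82948870-85206141 on the plus strand, and its longest coding transcript, Dmd-203, has 79 exons and 14910 bases. A shorter coding transcript, Dmd-201, has 18 exons and 4438 bases and starts far downstream within the gene, and the gene-level values do not separate the products. Utrn lies at chr10:12382188-12869365, Dag1 at chr9:108204634-108263958, Sgca at chr11:94962791-94976327, Sgcb at chr5:73632749-73647790 and Sgcd at chr11:46896253-47988969, all on the minus strand. Sspn lies at chr6:145931641-145965223 on the plus strand. No exon of these 8 genes overlaps an exon of another gene on the same strand.

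Promoter sequences help to compare members that rose to different extents, since muscle transcription factors bind short motifs. RefSeq start sites (GRCm38.p6) gave 10 windows for the 7 of the 8 members that were searched, each with 250 bases before and 50 bases after a start. Dtna was left out of this search. The E-box CANNTG, bound by MyoD and its relatives, the variant CAGCTG among them, the MEF2 site and the CArG box, bound by serum response factor, were searched on both strands. Of 32851 such windows of all genes, 72.3% held an E-box, 16.3% the CAGCTG variant, 3.2% a MEF2 site and 1.6% a CArG box. Of these, the upstream and the downstream Dmd promoter are given, whose products the values combine, with the promoters of Sgca and Sgcb, the sarcoglycan genes that rose from near the counting limit and from a measurable level. Capitals mark the motifs found.
Dmd, upstream start, chrX:82948620-82948919, plus strand: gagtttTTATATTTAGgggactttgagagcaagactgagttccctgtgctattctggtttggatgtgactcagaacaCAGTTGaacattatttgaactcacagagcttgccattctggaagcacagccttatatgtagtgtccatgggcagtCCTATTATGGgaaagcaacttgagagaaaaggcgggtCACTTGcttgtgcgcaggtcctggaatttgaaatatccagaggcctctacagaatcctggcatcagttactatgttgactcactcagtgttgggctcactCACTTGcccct
Dmd, downstream start, chrX:85048045-85048344, plus strand: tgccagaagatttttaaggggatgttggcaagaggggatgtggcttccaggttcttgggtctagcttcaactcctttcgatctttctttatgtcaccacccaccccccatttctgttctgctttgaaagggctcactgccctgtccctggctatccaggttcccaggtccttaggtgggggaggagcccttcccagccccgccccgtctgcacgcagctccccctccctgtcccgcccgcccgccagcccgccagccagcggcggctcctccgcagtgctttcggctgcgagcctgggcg
Sgca, chr11:94976278-94976577, minus strand: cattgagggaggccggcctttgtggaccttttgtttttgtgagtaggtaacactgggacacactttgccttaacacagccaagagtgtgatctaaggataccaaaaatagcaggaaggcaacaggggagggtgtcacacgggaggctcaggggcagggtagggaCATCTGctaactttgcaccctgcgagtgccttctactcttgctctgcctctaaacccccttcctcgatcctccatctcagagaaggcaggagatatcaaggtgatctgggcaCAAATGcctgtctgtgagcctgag
Sgcb, chr5:73647688-73647987, minus strand: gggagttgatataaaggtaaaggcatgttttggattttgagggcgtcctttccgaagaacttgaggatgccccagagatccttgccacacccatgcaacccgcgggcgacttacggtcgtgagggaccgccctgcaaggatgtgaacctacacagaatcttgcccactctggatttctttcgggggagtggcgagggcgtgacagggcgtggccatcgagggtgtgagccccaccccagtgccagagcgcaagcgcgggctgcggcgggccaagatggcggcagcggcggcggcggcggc
The upstream Dmd window held 3 E-boxes, a MEF2 site that begins 244 bases before the start and a CArG box that begins 98 bases before it. The downstream Dmd window and the Sgcb window held none of these motifs, and the Sgca window held 2 E-boxes and no other motif. Among the windows not shown, that of Utrn held 7 E-boxes, 2 of which overlap, that of Sgcd held 2, each of the 2 overlapping windows of Dag1 held the same 1, and the 2 windows of Sspn held 0 and 1. None of the 10 windows held CAGCTG. These matches describe letters and not bound sites.

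The first comparison asked how the complex changed when the cells differentiated, and set D2 against Prol within each genotype. In WT cells, 5 of the 8 members rose and 0 fell, while 16.6% of all 17672 genes tested rose and 30.7% changed in either direction. In KO cells, 5 of the 8 members rose and 0 fell, while 17.1% of all genes rose and 32.3% changed. Dmd, Sgca, Sgcb, Sspn and Dtna rose in both genotypes, and Dag1, Utrn and Sgcd did not pass the test in either. All 8 members passed the filter on low counts, but Sgca passed it only through D2, where it is high, and so had to differ. Without Sgca, 4 of the 7 other members rose in each genotype, and their median log2 fold change was 1.20 in WT and 1.14 in KO, against -0.01 and 0.02 over all genes. Calls were made by limma on log2 CPM at a Benjamini-Hochberg adjusted p under 0.05. The criteria of the study were taken here as an unadjusted p under 0.05, a 1.5-fold change and at least 10 CPM in a library. With these, 4 members rose in WT and 3 in KO, where 10.8% and 11.3% of all genes rose and 23.6% and 24.9% changed. The methods of the study give the limit as a log2 fold change of 1.5. At that limit only Sgca (7.39) and Sgcb (1.53) would pass in WT, and no member in KO. The share of all genes was not computed there. Where nothing says that replicates came from separate cultures, as here, such p-values measure the spread between these samples, which may be technical. The rise of the fibroblast markers at D2 accompanied these changes, and its part in them was not tested. In bulk RNA, fewer cells of a type and less RNA per cell cannot be told apart.

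**Figure D1:**
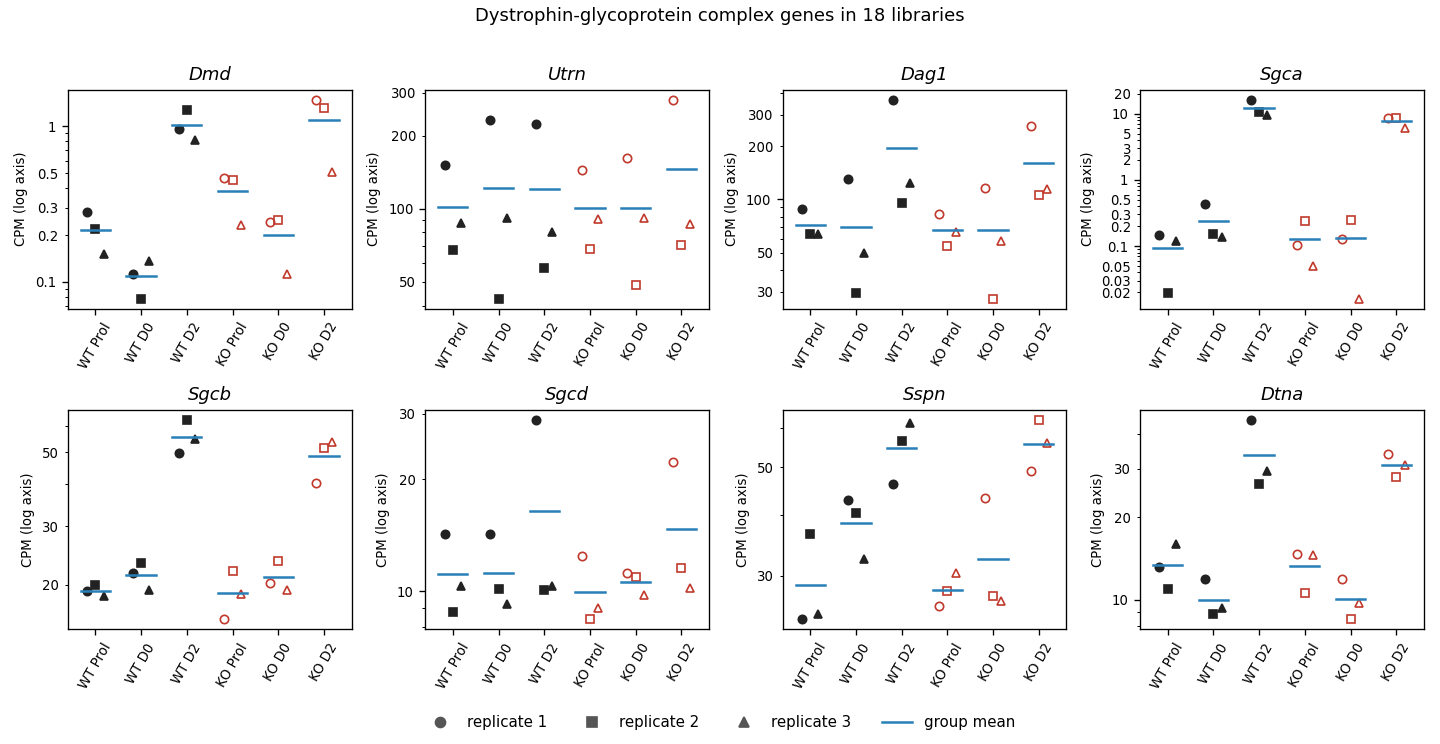
Levels of the 8 genes in each of the 18 libraries, in CPM on a log axis, by group, with a marker shape for each replicate number, filled black for WT and open red for KO, and a line at the group mean. Sgca lay between 0.0161 and 0.432 CPM in Prol and D0 and between 6.01 and 16.3 CPM in D2, whereas Utrn was highest in replicate 1 of all 6 groups.

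Among the cytoskeletal linkers, Dmd, which codes for dystrophin, was at 0.281, 0.217 and 0.152 CPM in the 3 WT Prol libraries and at 0.967, 1.26 and 0.816 CPM in WT D2. Every WT D2 library was above every WT Prol library, and the log2 fold change was 2.25 (SE 0.50, limma adjusted p = 0.00274). In KO cells, Dmd was at 0.465, 0.454 and 0.231 CPM in Prol and at 1.48, 1.31 and 0.511 CPM in D2. The groups again did not overlap, although the third KO D2 library was close to the 2 higher KO Prol libraries, and the log2 fold change was 1.45 (SE 0.50, limma adjusted p = 0.0351). The KO call rested on few reads and on single libraries: the limma adjusted p was 0.157 without KO Prol replicate 3, 0.125 without KO D2 replicate 1, 0.126 without KO D2 replicate 2, and 0.0756 when only these 2 groups were fitted. Counts behind the Dmd values were low throughout, with at most 10 expected counts per library in WT Prol and 15 in KO Prol, and 28.5 to 45.7 in WT D2 and 19 to 60 in KO D2. Summed over libraries, 106 counts in WT D2 against 19 in WT Prol gave a ratio of rates of 4.87 (exact 95% interval 2.97 to 8.40), and 124 against 35 in KO gave 2.94 (2.00 to 4.41).

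Utrn codes for utrophin, the relative of dystrophin that occupies the membrane of immature muscle and the neuromuscular junction in the adult. It was at 151, 68.0 and 87.4 CPM in WT Prol and at 223, 57.0 and 80.5 CPM in WT D2, and at 144, 68.4 and 90.8 CPM in KO Prol and 281, 71.2 and 86.7 CPM in KO D2. The groups overlapped in both genotypes. The log2 fold change was 0.06 (95% interval -1.35 to 1.48, limma adjusted p = 0.958) in WT and 0.32 (-1.09 to 1.73, adjusted p = 0.765) in KO, and without D2 replicate 1 it was -0.51 in WT and -0.29 in KO. These intervals reach beyond a 2-fold change in either direction. With the replicate number as a block, which paired the KO libraries, the KO interval was narrower, from -0.15 to 0.79, and Utrn was again not called (limma adjusted p = 0.254).

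Dag1, which codes for both parts of dystroglycan, was at 88.7, 63.3 and 63.6 CPM in WT Prol and at 366, 95.7 and 124 CPM in WT D2. In KO cells it was at 82.2, 54.7 and 65.5 CPM in Prol and at 259, 106 and 115 CPM in D2. No Prol library reached a D2 library of the same genotype, with the first replicate far above the others at D2, and the log2 fold change was 1.20 (95% interval -0.06 to 2.46, limma adjusted p = 0.143) in WT and 1.14 (-0.12 to 2.40, adjusted p = 0.16) in KO. Between KO libraries of the same replicate number, Dag1 was 3.16, 1.94 and 1.75 times higher at D2. Replicate numbers paired the KO libraries, and a fit blocked by that number gave a limma adjusted p of 0.00342 for KO, with a log2 fold change of 1.14 (95% interval 0.54 to 1.74). The block brought the members that rose in KO to 6 of 8, and it also raised the share of all genes that rose from 17.1% to 24.6%, and of those called in either direction from 32.3% to 48.6%. In WT, where the numbers did not pair the D2 and Prol libraries, the same fit gave 6 of 8 members, with 24.4% of all genes higher and 47.7% called.

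**Figure D2:**
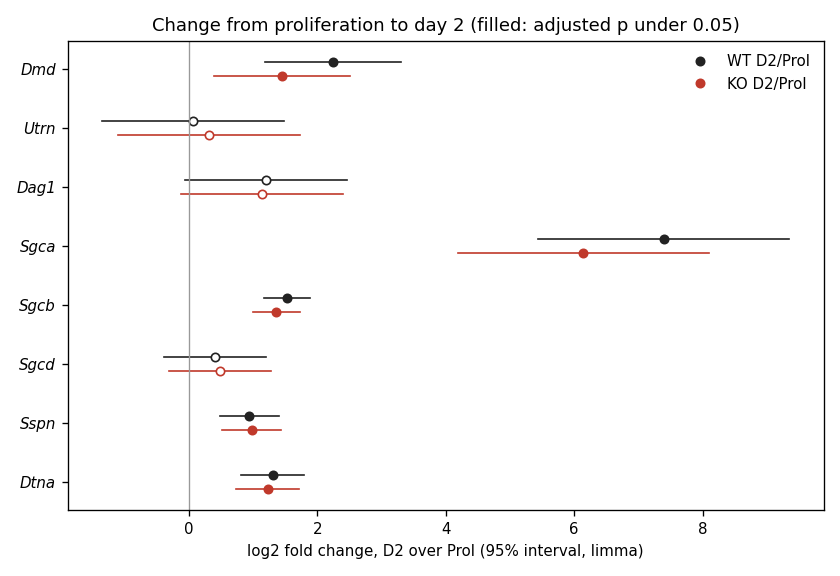
Log2 fold change of each gene from Prol to D2 in WT (black) and KO (red), with its 95% interval from limma, filled where the adjusted p was under 0.05. The points of Dmd, Sgca, Sgcb, Sspn and Dtna are filled in both genotypes, and Sgca lies farthest to the right, at 7.39 in WT and 6.14 in KO.

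The 3 sarcoglycan members did not move alike. Sgca, which codes for α-sarcoglycan, the sarcoglycan most restricted to striated muscle, was at 0.147, 0.0198 and 0.118 CPM in WT Prol, where the second library had 0 counts, and at 16.3, 10.5 and 9.58 CPM in WT D2. In KO cells it was at 0.105, 0.236 and 0.0499 CPM in Prol and at 8.56, 8.45 and 6.01 CPM in D2. All Prol libraries were at or near the counting limit and all D2 libraries far above it. The fitted log2 fold change was 7.39 (SE 0.92, limma adjusted p = 1.86e-05) in WT and 6.14 (SE 0.92, adjusted p = 0.000109) in KO, and its size depends on the 0.5 counts that the authors added to every value. It lay between 6.48 and 7.93 for WT and between 5.59 and 6.71 for KO when single libraries were left out, and with 1 CPM added to every value it was 3.55 and 2.93. From summed counts, 1271 against 8 in WT gave a ratio of rates of 139 (exact 95% interval 70.1 to 322), and 879 against 11 in KO gave 66.3 (36.8 to 133).

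Sgcb codes for β-sarcoglycan, which forms the core of the sarcoglycan subcomplex together with δ-sarcoglycan. It was at 19.2, 19.9 and 18.5 CPM in WT Prol and at 49.6, 62.2 and 54.7 CPM in WT D2, and at 15.8, 22.0 and 18.8 CPM in KO Prol and 40.6, 51.5 and 53.7 CPM in KO D2. The D2 libraries of both genotypes lay well above all Prol libraries, and Sgcb had the smallest standard error of the 8 members. It rose by a log2 fold change of 1.53 (SE 0.17, limma adjusted p = 6.45e-06) in WT and 1.37 (SE 0.17, adjusted p = 1.88e-05) in KO.

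Sgcd, the gene of δ-sarcoglycan, was at 14.2, 8.79 and 10.3 CPM in WT Prol and at 28.8, 10.1 and 10.3 CPM in WT D2. In KO cells it was at 12.5, 8.41 and 9.0 CPM in Prol and at 22.3, 11.6 and 10.2 CPM in D2. In both genotypes the groups overlapped, and the D2 mean was set by replicate 1. The log2 fold change was 0.41 (95% interval -0.39 to 1.20, limma adjusted p = 0.459) in WT, where it was -0.09 without D2 replicate 1, and 0.49 (-0.30 to 1.29, adjusted p = 0.355) in KO. Between KO libraries of the same replicate number, Sgcd was 1.78, 1.37 and 1.13 times as high at D2. With the block the KO interval was 0.01 to 0.97, and Sgcd was again not called (limma adjusted p = 0.0827).

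Sspn codes for sarcospan, a small membrane protein with several membrane-spanning segments that binds the sarcoglycans. It was at 24.5, 36.5 and 25.1 CPM in WT Prol and at 46.2, 56.4 and 61.5 CPM in WT D2, and at 26.1, 27.9 and 30.3 CPM in KO Prol and 49.1, 62.2 and 55.9 CPM in KO D2. No Prol library reached any D2 library of its genotype, and Sspn rose by a log2 fold change of 0.95 (SE 0.21, limma adjusted p = 0.00325) in WT and 0.98 (SE 0.21, adjusted p = 0.00234) in KO. Dtna, the gene of α-dystrobrevin, which anchors syntrophins and nitric oxide synthase to the complex, was at 13.2, 10.9 and 15.9 CPM in WT Prol and at 45.0, 26.3 and 29.5 CPM in WT D2. In KO cells Dtna was at 14.7, 10.6 and 14.5 CPM in Prol and at 33.8, 28.0 and 31.0 CPM in D2. These groups did not overlap either, and the log2 fold change was 1.31 (SE 0.23, limma adjusted p = 0.00044) in WT and 1.23 (SE 0.23, adjusted p = 0.000702) in KO.

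Levels of different genes were compared per length, as CPM per kilobase of the longest coding transcript. In WT Prol the order was Dag1 at 12.7 ± 2.57, Utrn at 8.24 ± 3.51, Sspn at 6.36 ± 1.51, Sgcb at 5.07 ± 0.188, Sgcd at 4.54 ± 1.14, Dtna at 2.12 ± 0.399, Sgca at 0.0551 ± 0.0388 and Dmd at 0.0145 ± 0.00433 CPM per kilobase (mean ± SD, n = 3). Dag1 overlapped with Utrn, Utrn with Sspn, Sgcb with Sgcd and Sgca with Dmd, while the libraries of the other neighbors in this order did not overlap. In WT D2 the order was Dag1 at 34.5 ± 26.2, Sgcb at 14.7 ± 1.68, Sspn at 12.1 ± 1.72, Utrn at 9.72 ± 7.27, Sgca at 7.03 ± 2.10, Sgcd at 6.70 ± 4.38, Dtna at 5.34 ± 1.59 and Dmd at 0.0681 ± 0.0152 CPM per kilobase (mean ± SD, n = 3). There, Dag1 was above Sgcb in every library and Dmd was below Dtna in every library, and all neighbors between Sgcb and Dtna overlapped. Sgca thus moved from a range shared with Dmd to one shared with Utrn. With the union of all exons as length, Sgca was at 6.99 ± 2.09 and Sgcd at 1.99 ± 1.30 CPM per kilobase in WT D2 (SD, n = 3) and their libraries did not overlap, so that the nearness of Sgca to Sgcd depends on the length used. With this length Dag1 and Sgcb overlapped in WT D2, the lowest Dag1 library at 15.05 and the highest Sgcb library at 15.36 CPM per kilobase. Dmd had the lowest mean of the 8 in all 6 groups with both lengths. Both exceed the 4438 bases of the shorter Dmd-201, with which the Dmd values would be higher. Its place beside Sgca in Prol and D0 may thus depend on the product expressed, which was not tested. In KO D2 the order of the first 4 was that of WT D2, and Sgca, at 4.45 ± 0.835 CPM per kilobase (SD, n = 3), came after Sgcd and Dtna; with the union of all exons as length it came before both.

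At D0, when the cells had just reached confluence, 0 of the 8 members were called against Prol in either genotype by limma, with or without voom weights. Without the replicate block, 0 had an unadjusted p under 0.05. Over all genes, 0.00566% were called in WT and 0% in KO, and 2.17% and 1.12% had an unadjusted p under 0.05. With the block, which paired these libraries, no member was called, beside 0.017% of all genes in WT and 0% in KO. In WT the block gave an unadjusted limma p under 0.05 for Dmd (0.0356), Dtna (0.0164) and Sspn (0.0444). In KO it did so for Dmd (0.0422) and Dtna (0.0186). The log2 fold change of Dtna was -0.41 in WT and -0.40 in KO, Dmd was also lower at D0, and Sspn was higher. The share of all genes at that limit was not computed with the block. Dmd was at 0.113, 0.0782 and 0.137 CPM in WT D0 and at 0.243, 0.248 and 0.113 CPM in KO D0, with only 1.77 to 3.02 expected counts per WT library. All WT D0 libraries were below all WT Prol libraries, with a log2 fold change of -0.98 (95% interval -2.04 to 0.08, limma adjusted p = 1), and the KO groups overlapped at -0.94 (SE 0.50, adjusted p = 1). Sspn in WT, at 42.9, 40.2 and 32.4 CPM, had a log2 fold change of 0.44 (-0.02 to 0.90, limma adjusted p = 1). Sgca remained near the counting limit at D0, with 0.137 to 0.432 CPM in WT and 0.0161 to 0.252 CPM in KO.

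The second comparison set KO against WT in the same state and asked whether loss of LAP2α changed these genes. Limma called 0 of the 8 members in Prol, 0 in D0 and 0 in D2, with or without voom weights, and 0 had an unadjusted p under 0.05 in any state. Over all genes, 0.00566% were called in Prol, 0% in D0 and 0% in D2, and 1.11%, 1.47% and 1.96% had an unadjusted p under 0.05. At the study's criteria as taken here, 0 members and 82 of the 17672 genes changed at D2. The paper, which blocked by sequencing lane, reports more genes at D2 under its own criteria. At D2 the log2 fold change was -0.00 for Dmd (95% interval -1.06 to 1.06), 0.25 for Utrn (-1.16 to 1.67) and -0.15 for Dag1 (-1.41 to 1.11). Intervals this wide hold changes of more than 2-fold in both directions. Replicate numbers paired the KO and WT libraries of D2, and with the block the intervals were -0.91 to 0.91 for Dmd, -0.22 to 0.73 for Utrn and -0.75 to 0.45 for Dag1, with no member called. Between D2 libraries of the same number, Utrn was 1.26, 1.25 and 1.08 times as high in KO as in WT (limma adjusted p = 0.962 with the block). Sgcb was 0.82, 0.83 and 0.98 times as high (limma adjusted p = 0.954 with the block). Sgca was 0.53, 0.80 and 0.63 times as high (limma adjusted p = 0.985 with the block). The other members went both ways. Without the block, the intervals of Sgcb, at -0.20 (-0.56 to 0.16), Sspn, at 0.03 (-0.43 to 0.49), and Dtna, at -0.08 (-0.57 to 0.41), were narrower than those of Dmd, Utrn and Dag1. That of Sgcd, at -0.07, ran from -0.86 to 0.73.

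**Figure D3:**
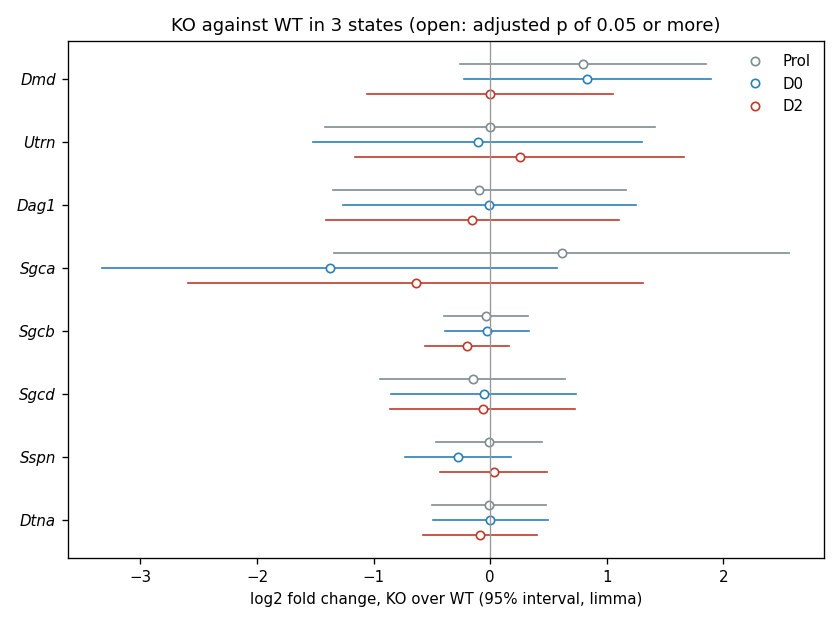
Log2 fold change of each gene between KO and WT in Prol, D0 and D2, with its 95% interval from limma. All points are open, since no adjusted p was under 0.05, and every interval includes 0, with the widest intervals for Sgca and the narrowest for Sgcb.

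Sgca was the 1 member of 8 whose KO and WT libraries did not overlap at D2, where 6.17% of all genes did not overlap. The 3 KO D2 libraries, at 8.56, 8.45 and 6.01 CPM, were all below the 3 WT D2 libraries, at 16.3, 10.5 and 9.58 CPM, and the ratio of the means was 0.633. The fitted log2 fold change was -0.64 (95% interval -2.59 to 1.31, limma adjusted p = 1), and it lay between -0.79 and -0.41 when single libraries were left out. This interval uses the spread over all 6 groups, which includes the Sgca values near 0 counts in Prol and D0. Of the 7 muscle markers, 6 moved the same way, namely Myod1, Des, Cdh15, Myog, Mymk and Myh3. They were lower in every KO D2 library than in every WT D2 library, and none of them was called. Myf5 overlapped, with a mean of 20.0 CPM in KO D2 and 17.6 CPM in WT D2. The part of the lower markers in the Sgca values was not tested.

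Before differentiation, Dmd had a higher mean in KO than in WT, with a log2 fold change of 0.80 (95% interval -0.26 to 1.85, limma adjusted p = 1) in Prol and 0.83 (-0.22 to 1.89, adjusted p = 1) in D0. Both differences rest on 15 or fewer expected counts per library, and the groups overlapped. Whether the D2/Prol change differed between the genotypes was tested with an interaction term. It was called by limma for 0 of the 8 members, with or without voom weights, and 0 had an unadjusted p under 0.05, against 0% and 0.945% of all genes. For Sgca the KO change was smaller by 1.25 on the log2 scale (log2 difference -1.25, 95% interval -4.02 to 1.51), and for Dmd by 0.80 (log2 difference -0.80, -2.29 to 0.70). For Sgcb, Sspn and Dtna the differences were -0.16 (-0.67 to 0.35), 0.04 (-0.61 to 0.68) and -0.08 (-0.77 to 0.62). These comparisons share libraries with each other and are not independent.

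Libraries with the replicate number 1 stood apart for some members. Utrn was highest in replicate 1 in all 6 groups, at 1.81 to 3.56 times the mean of replicates 2 and 3, and so were Dag1, at 1.37 to 3.33 times, and Sgcd, at 1.08 to 2.82 times. Over all genes tested, 12.4% were highest in replicate 1 in all 6 groups. Sgcb, in contrast, was not highest in replicate 1 in any group, with ratios of 0.771 to 1.02. Part of the size depended on scaling: with library totals alone, the ratio in WT D2 was 2.54 for Utrn, 2.61 for Dag1 and 2.21 for Sgcd, in place of 3.25, 3.33 and 2.82, and 2 of the 8 members and 11.4% of all genes were highest in replicate 1 in all 6 groups. The labels do not say what libraries of 1 number share. The wide intervals of Utrn, Dag1 and Sgcd contain this spread.

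**Figure D4:**
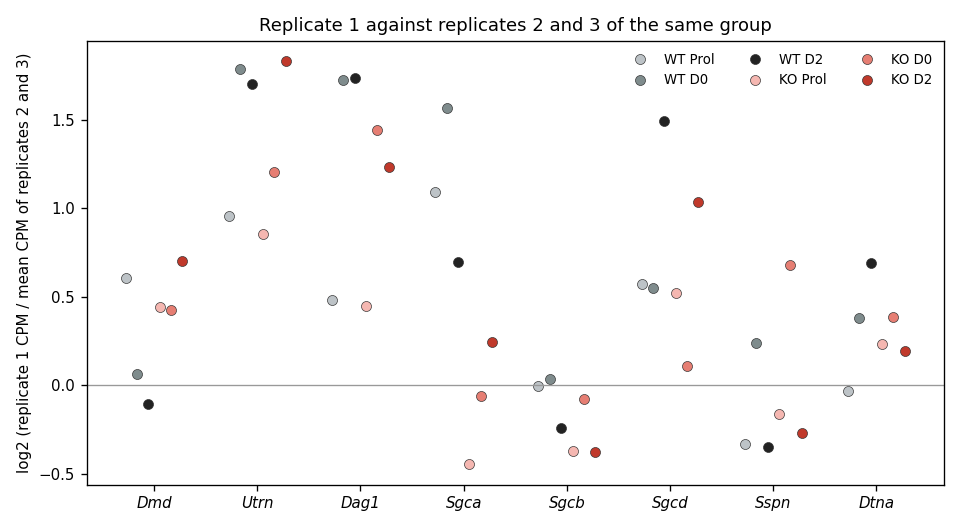
Level in replicate 1 divided by the mean level of replicates 2 and 3 of the same group, on a log2 axis, for each gene and group. Utrn, Dag1 and Sgcd lie above 0 in all 6 groups, with Utrn between 1.81 and 3.56 times, and Sgcb lies near or below 0.

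Other components and partners of the complex were examined as a list of 15 genes, of which 12 were found and tested. At D2, 4 of the 12 rose in WT and 5 in KO, and 0 fell, beside the 16.6% and 17.1% of all genes that rose. Both counts include Cav3, which passed the filter on low counts only through D2, where it is high, and so had to differ. The median log2 fold change of the 12, Cav3 included, was 0.78 in WT and 0.92 in KO, against -0.01 and 0.02 over all genes. Cav3, the muscle caveolin, which binds dystroglycan, was at 0.12, 0.0988 and 0.0169 CPM in WT Prol and at 56.2, 34.6 and 26.4 CPM in WT D2. Like Sgca, it went from the counting limit to a clear level. From summed counts, 4094 in WT D2 against 6 in WT Prol gave a ratio of rates of 595 (exact 95% interval 273 to 1623). Its KO D2 libraries were at 16.5, 22.6 and 18.9 CPM, and 2269 counts against 2 in KO Prol gave a ratio of 941 with a much wider interval (260 to 7772).

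Sntb1, the gene of β1-syntrophin, rose by a log2 fold change of 4.82 in WT (SE 0.51, limma adjusted p = 3.97e-06) and 4.13 in KO (adjusted p = 1.66e-05). Pgm5, the gene of aciculin, a dystrophin-binding protein of adhesion sites, rose by 4.83 in WT (SE 0.69, limma adjusted p = 7.28e-05) and by 3.27 in KO (adjusted p = 0.00191). Nos1, the neuronal nitric oxide synthase that syntrophin holds at the muscle membrane, rose by 2.92 in WT (SE 0.63, limma adjusted p = 0.00231) and by 2.43 in KO (adjusted p = 0.0077). Sgce, the gene of ε-sarcoglycan, which is expressed in many tissues, rose by 0.94 in KO (SE 0.28, limma adjusted p = 0.0172) and was at 0.74 in WT (adjusted p = 0.0555); the difference between the genotypes was not called. Thus, among Sgca, Sgcb, Sgcd and Sgce, the first pair rose in both genotypes, Sgce in KO, and Sgcd in neither. The laminin, agrin, biglycan and plectin genes Lama2, Agrn, Bgn and Plec, which code for partners outside the membrane and for a cytoskeletal linker, were not called in either genotype. In WT the intervals were wide for Lama2 (0.99, 95% interval -0.56 to 2.54), Bgn (0.34, -0.93 to 1.60) and Plec (-0.03, -1.13 to 1.06). Between KO libraries of the same number, Lama2 was 2.61, 2.12 and 1.18 times as high at D2, and Bgn 2.055, 1.63 and 1.37 times. Agrn and Plec went both ways there. Between KO and WT at D2, 0 of the 12 were called by limma and 1 had an unadjusted p under 0.05, Agrn at -0.33 (95% interval -0.65 to -0.01, limma adjusted p = 1). Sntb1, Cav3, Agrn and Pgm5 were lower in every KO D2 library than in every WT D2 library, where 6.17% of all genes did not overlap in either direction.

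**Figure D5:**
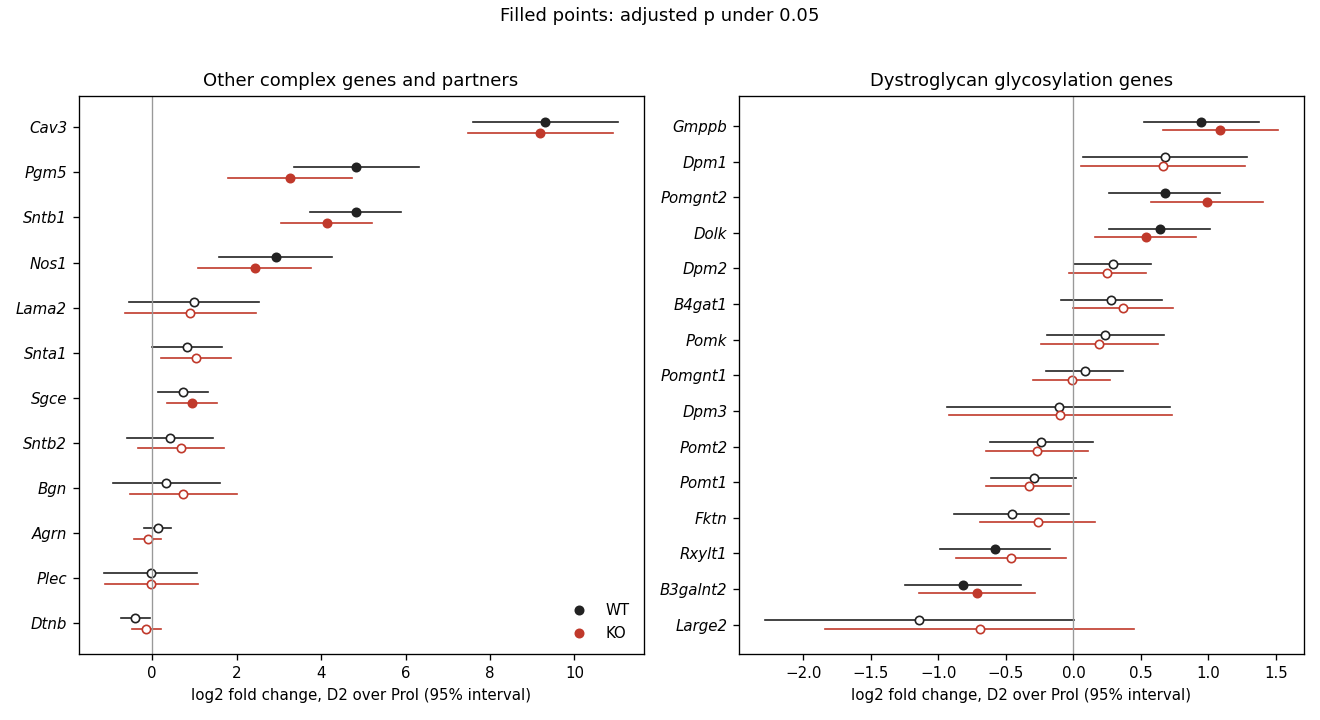
Log2 fold change from Prol to D2, with its 95% interval from limma, of the 12 partner genes (left) and the 15 dystroglycan glycosylation genes (right) in WT (black) and KO (red), filled where the adjusted p was under 0.05. Partner genes reach 9.31 and include no filled point below 0, whereas the glycosylation genes lie between -1.14 and 1.09 with filled points on both sides.

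Dystroglycan binds laminin through a sugar chain that a series of enzymes builds in the endoplasmic reticulum and the Golgi. Of 15 genes of this pathway, all were found, and at D2 3 rose and 2 fell in WT, and 3 rose and 1 fell in KO. These counts are near the background, in which 30.7% of all genes were called in WT and 32.3% in KO, and are no result about the pathway. The median log2 fold change was 0.08 in WT and -0.01 in KO, against -0.01 and 0.02 over all genes. The genes that rose in both were Gmppb, which makes the mannose donor GDP-mannose (0.95 and 1.09 in WT and KO), Pomgnt2, which extends the first mannose (0.68 and 0.99), and Dolk, the dolichol kinase (0.64 and 0.54). The gene that fell in both was B3galnt2, which adds N-acetylgalactosamine to the core (-0.82 and -0.72). Rxylt1, which adds xylose, fell in WT (-0.58, limma adjusted p = 0.0311) and was at -0.46 in KO (adjusted p = 0.0773). Between KO and WT at D2, limma called 0 of the 15, and 0 had an unadjusted p under 0.05.

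Over the 18 libraries, the genes whose log2 CPM followed Sgca most closely, among the 10752 genes that reached 10 CPM in a library, were Tnnc2 (Pearson r = 0.978), Tnnt3 (0.977) and Pgam2 (0.973), which code for fast-muscle troponins C and T and the muscle phosphoglycerate mutase. For Dmd they were Ndst2 (r = 0.919), Mob3c (0.903) and Nisch (0.898). These values are descriptions, since the points share the 6 groups and most of the spread is that between D2 and the other states.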

How the data were processed

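RNA-seq was done on 18 libraries, 3 replicates of each of 6 groups, which were taken from the sample labels together with the replicate numbers. The authors made strand-specific poly(A) libraries, sequenced 50-base single reads, removed adapters (cutadapt), aligned the reads to the GRCm38 transcriptome (NextGenMap), estimated expected counts with RSEM and summarized them to genes with tximport. They removed genes with low counts and scaled with TMM factors for limma-voom. The deposited values are CPM, computed by the authors as the expected count plus 0.5 over the scaled library total. Expected counts were recovered from them here. Between 0 and 20, 36.0% to 49.1% of these were whole within 0.01, so that no count test was run over all genes. The exact intervals for Dmd, Sgca and Cav3 used counts summed over the libraries of a group and rounded to whole numbers.

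Log2 of the deposited CPM was fitted with limma 3.58.1 in R 4.3.3 (lmFit, eBayes with a variance trend), with group as the single factor (6 groups, 18 libraries), over 17672 genes that exceeded 5 expected counts throughout at least 1 group. The script was tested on simulated data. Adjusted p-values are Benjamini-Hochberg values over all genes tested, and a gene rose or fell at an adjusted p under 0.05. The study's own criteria, an alternative here, were taken as an unadjusted p under 0.05, a 1.5-fold change and 10 CPM in at least 1 library; the methods give the fold limit on the log2 scale. Other alternatives were the scaling, voom weights, no filter on low values, a pseudocount of 1 CPM, the replicate number as a block, fits restricted to the 2 groups at issue, and leaving out single libraries. Sequencing lanes, a factor in the authors' fit, were not used here.

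Replicate numbers were taken to pair libraries where same-numbered libraries deviated together from their group means over all genes (r over 0.1 for every pair). This held in KO D2/Prol (r of 0.198 to 0.364), in D0/Prol of both genotypes and in KO/WT in each state, and not in WT D2/Prol (lowest r of 0.0393). The pairing comes from the data; the labels give only the number.

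The members and the gene lists (15 partner genes, 15 dystroglycan glycosylation genes and the cell type markers) were chosen with earlier results of these data known. Some genes of these lists are not reported here. From the lists, the genes named are those called at D2 in both genotypes, those at the detection limit and up to 3 more with the largest changes; Sgce, Rxylt1, Agrn and the other partner genes named beside these were chosen after their values were seen. The genes most like Dmd and Sgca are the 3 with the highest r. Positions are from GENCODE M21 and promoters from RefSeq. Python 3.11.15 and matplotlib 3.10.9 were used for the figures.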

Additional observations from a re-analysis of the deposited data

How the results depend on the processing

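In WT, Dmd, Sgca, Sgcb, Sspn and Dtna kept their rise from Prol to D2 under every alternative run, other than the study's criteria, whose minimum of 10 CPM Dmd does not reach. With those criteria, 3 members rose in KO D2/Prol, as Sgca also stayed under the minimum there, and 11.3% of all genes rose. The call of Dmd in KO was lost when only the groups compared were fitted and without 3 single libraries. With the replicate block, Dag1 rose in both genotypes (limma adjusted p of 0.00254 in WT and 0.00342 in KO), which made 6 members in each, while 47.7% of all genes in WT and 48.6% in KO were then called, against 30.7% and 32.3% without it, and the block changed no other call of the members. With voom weights and a random block its adjusted p was 0.0101 and 0.0126, and for the KO groups alone 0.0413. The cause was not tested. A pseudocount of 1 CPM lowered the D2/Prol log2 fold change of Sgca to 3.55 in WT and 2.93 in KO and that of Dmd to 0.72 and 0.58, all still called, and turned the KO/WT difference of Dmd at D2 (log2 fold change 0.0337). Library totals alone moved the median of all genes at D2/Prol to 0.15 in WT and 0.16 in KO and changed no call of the members.

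Leaving out single libraries turned the sign of differences that were not called, for 2 of the 8 members in WT D2/Prol, 1 in KO D2/Prol, 3 in WT D0/Prol, 4 in KO D0/Prol, 7 in KO/WT Prol, 5 in KO/WT D0, 6 in KO/WT D2 and 5 in the interaction term. The values that follow cover D2/Prol and KO/WT D2 in full and, for the other comparisons, only the members with the lowest and the highest difference. The log2 fold change then ran from -0.51 to 0.48 for Utrn and from -0.0924 to 0.66 for Sgcd in WT D2/Prol, from -0.29 to 0.70 for Utrn in KO D2/Prol, from -0.0562 to 0.29 for Sspn in KO D0/Prol, and from -0.32 to 0.0430 for Sgcd in KO/WT Prol. In KO/WT D2 it ran from -0.29 to 0.48 for Dmd, from -0.36 to 0.83 for Utrn, from -0.56 to 0.43 for Dag1, from -0.41 to 0.43 for Sgcd, from -0.0868 to 0.12 for Sspn and from -0.24 to 0.15 for Dtna. The interaction term of Utrn ran from -0.36 to 0.83. Depth limits Dmd in all states, and Sgca and Cav3 in Prol and D0, where every library held 15 or fewer counts.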
